A study of Mus musculus with 10 samples.

Results

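The S100 genes described here are S100a1, S100a4, S100a6, S100a10, S100a11, S100a13 and S100a16, 7 of the 33347 genes in a count table of mouse lung RNA, taken by gene symbol in all 10 libraries. They were grouped as genes of stroma and epithelium, in contrast to the S100 genes of neutrophils. The lungs came from wild-type mice that had been given bleomycin, a drug that breaks DNA and leaves the lung fibrotic, and that had been injected with bone marrow cells sorted by aldehyde dehydrogenase (ALDH) activity. The 5 ALDHbr libraries came from recipients of cells with high activity and the 5 ALDHdim libraries from recipients of cells with low activity, so bleomycin and a cell transfer are common to both groups. The sources used here do not give the age of the mice, the dose or the time after injury, and no lung without bleomycin or without transferred cells was analysed here.

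S100 proteins are small calcium-binding proteins with a pair of EF-hand loops, which work mostly as dimers. Calcium opens a surface through which they hold partner proteins such as annexins or myosin, and some of them are also released from cells and act on receptors, among them the receptor for advanced glycation end products. In lung, S100A4 has long been used as a marker of fibroblasts (fibroblast-specific protein) and is also made by macrophages and T cells. S100A6, S100A10 and S100A11 are widely expressed in epithelium, fibroblasts and vessels.

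The 7 genes lie on mouse chromosome 3 in 2 groups (GRCm38, GENCODE M21). S100a1, S100a13, S100a16, S100a4 and S100a6 occupy 113.1 kb from 90511034 to 90624181, and S100a11 and S100a10 occupy 44.16 kb from 93520488 to 93564643. S100a1 is transcribed from the minus strand, starting at 90514392, and S100a13 starts at 90514435 on the plus strand, so these neighbours are transcribed away from each other. The RefSeq starts of the same pair enclose 104 bases, shown here on the plus strand (GRCm38.p6, chr3:90514331-90514434) because the levels of these neighbours are compared below. None of the 4 motifs searched was found in it, and it is therefore in lower case throughout.
S100a1-S100a13 interval: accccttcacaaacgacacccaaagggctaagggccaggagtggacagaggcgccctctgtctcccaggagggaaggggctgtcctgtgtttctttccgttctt
RefSeq promoter entries matched 6 of the 7 genes, and S100a10 had none. The 250 bases before the start of S100a4 (chr3:90603520-90603769, plus strand) and of S100a11 (chr3:93520246-93520495, plus strand) are shown because the levels of these genes ran together across the libraries. Capitals mark motif matches on either strand.
S100a4: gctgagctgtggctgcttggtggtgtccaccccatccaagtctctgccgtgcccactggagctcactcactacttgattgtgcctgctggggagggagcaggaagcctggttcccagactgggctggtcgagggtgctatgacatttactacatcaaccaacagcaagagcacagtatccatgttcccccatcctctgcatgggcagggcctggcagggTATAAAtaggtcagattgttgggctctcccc
S100a11: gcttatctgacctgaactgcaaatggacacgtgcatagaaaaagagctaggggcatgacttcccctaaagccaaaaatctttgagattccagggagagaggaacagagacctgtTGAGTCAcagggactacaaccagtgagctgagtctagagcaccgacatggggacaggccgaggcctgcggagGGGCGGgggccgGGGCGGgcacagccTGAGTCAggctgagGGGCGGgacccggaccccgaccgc
The S100a4 sequence holds a TATA box (TATAAA) that begins 31 bases before the start, a motif found in 12.4% of 32851 promoter windows of this length. The S100a11 sequence has AP-1 elements (TGANTCA, here TGAGTCA) beginning 136 and 38 bases before the start, and 6.75% of windows hold that motif. It also has GC boxes (GGGCGG), present in 32.7% of windows, beginning 64, 52 and 24 bases before the start. The CCAAT box (CCAAT), present in 33.8% of windows, was found in neither sequence. Matches of different motifs do not overlap in these windows, and a match in letters is not a measured binding site.

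The libraries held 588063 to 2002947 counts. They were 3' libraries, in which the number of counts does not scale with transcript length, so levels of different genes are set side by side as CPM (counts scaled to a common library size) over the tested genes after scaling. ALDHbr 2 was the shallowest library, ALDHbr 3 and 5 detected more genes (24722 and 25377) than any of the others (17044 to 21209), and ALDHdim 2 carried the highest levels of the neutrophil genes S100a8 and S100a9. The labels number the samples without saying that each came from its own animal, and a p-value here reflects the spread among these samples, which may be technical. Some reads of S100a4 may be missing from its count, because 222 of the 503 different 81-base stretches of its transcripts also occur in Gm42674. That gene overlaps S100a4 on the same strand and is not among the genes of the count table. Whether the shared reads were counted for S100a4 or dropped was not tested. Of the 431 such stretches of S100a11, 159 also occur in the pseudogenes Gm12854 or Gm7665, which held 5 and 3 counts over all libraries. Whether shared reads were dropped from the count of S100a11 was not tested either. Transcripts of the other 5 genes shared none with another gene.

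S100a6 (calcyclin) was the most abundant of the 7 genes at 875 ± 156 CPM (SD, n = 10), rank 104 of 10844 tested genes. It was followed by S100a11 at 749 ± 116 CPM and S100a10 at 371 ± 67.8 CPM. S100a1 was at 226 ± 61.9 CPM, S100a16 at 172 ± 32.7 CPM, S100a13 at 101 ± 28.2 CPM and S100a4 at 69.6 ± 31.2 CPM. S100a11 was above S100a10, S100a10 above S100a1, and S100a16 above S100a13 in 10 of 10 libraries. The order was less firm for S100a6 over S100a11 (8 of 10 libraries), S100a1 over S100a16 (9 of 10) and S100a13 over S100a4 (7 of 10). S100a4 had the lowest mean level, with 907 counts over all libraries against 10884 for S100a6. Stretches shared with other genes may lower the counts of S100a4 and S100a11, and how far was not tested.

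**Figure D1:**
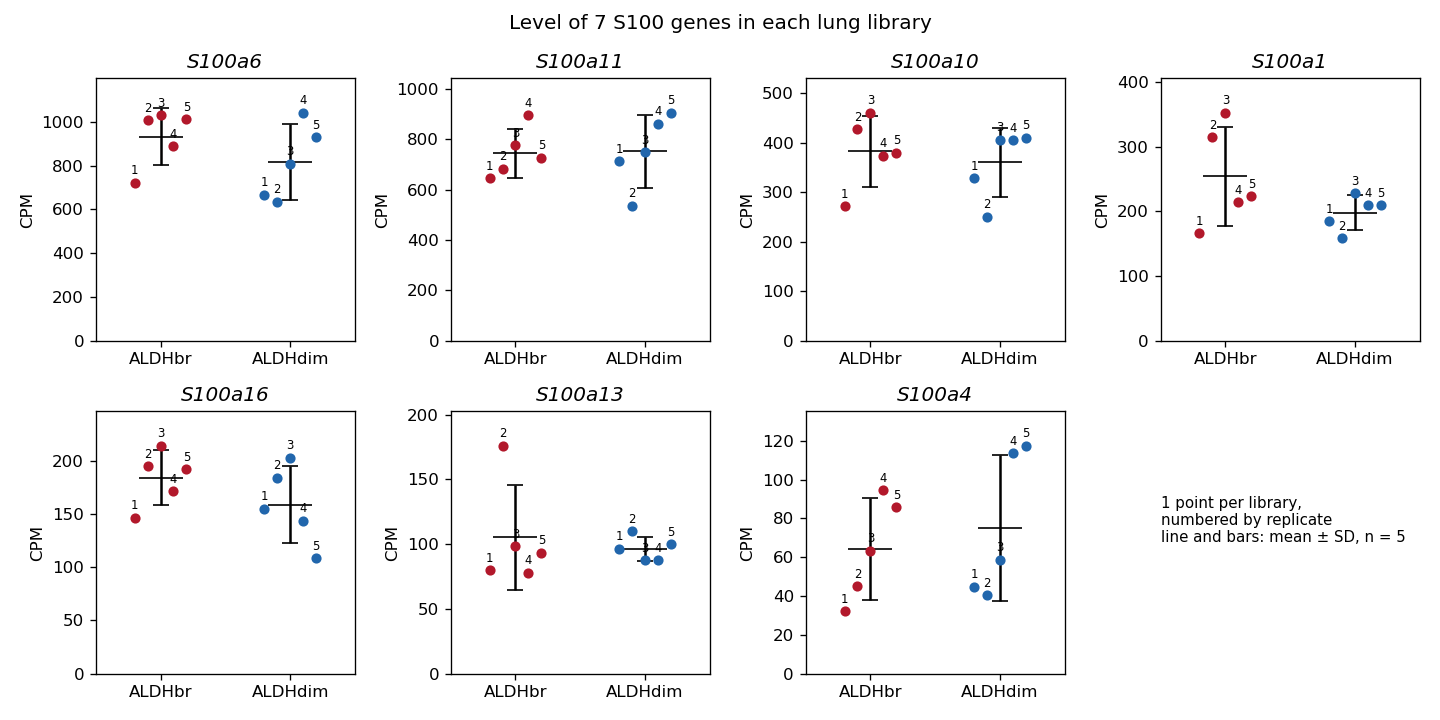
Level in CPM (vertical axes, from 0) of each S100 gene in the ALDHbr and ALDHdim libraries, 1 point per library with its replicate number, and mean ± SD (n = 5). The groups overlap for each of the 7 genes, S100a13 of ALDHbr 2 sits alone at 176 CPM, and S100a4 spans 32.3 to 118 CPM.

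No difference between recipients of ALDHbr and ALDHdim cells was detected for any of the 7 genes. By edgeR's quasi-likelihood test on 10844 genes, 0% passed an adjusted p of 0.05, and that p was 0.99925 for each of the 7. None of the 7 (0 of 7) had an unadjusted p under 0.05, beside 402 genes or 3.71% of all tested, and DESeq2 and limma-voom also passed 0 genes. The groups overlapped in CPM for each of the 7, and did so for all but 0.535% of tested genes. Estimates were higher in ALDHbr recipients for 5 of the 7 and lower for 2, with a median log2 fold change of 0.085, beside 5628 higher, 5216 lower and a median of 0.01 over all tested genes. In bulk tissue, fewer cells of a type and less RNA per cell cannot be told apart.

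S100a1, best known from heart muscle, where its protein acts on calcium release and reuptake, had the smallest p of the 7. Its level was 167, 315, 353, 214 and 224 CPM in ALDHbr libraries 1 to 5. In ALDHdim libraries 1 to 5 it was 185, 159, 229, 210 and 209 CPM. ALDHbr 2 and 3 were above all other libraries, while ALDHbr 1 was lower than 4 of the 5 ALDHdim libraries. The log2 fold change was 0.35 (SE 0.18, unadjusted p = 0.075 from edgeR's quasi-likelihood test), with an interval of 0.97 to 1.67-fold, and it was 0.20 without ALDHbr 3. Without ALDHbr 1 it was 0.47, with an unadjusted p of 0.0098 and an adjusted p of 0.34 from edgeR's quasi-likelihood test. S100a1 also ran with depth. Its Pearson r with the log2 total count of the library was −0.86 and Spearman's rho −0.88 (permutation p = 0.0022 and 0.00157, adjusted over 14 relations 0.031 and 0.022), and r was −0.80 without the 2 libraries farthest from the median depth. That relation was examined after the levels had been seen, and its part in the group values was not tested. For the other 6 genes r with the log2 total count lay between −0.66 and 0.055, with an adjusted permutation p of 0.24 or more. The lowest of these were S100a10 at −0.66 and S100a6 at −0.62. Each of them had a rho of −0.72 (permutation p = 0.024, adjusted 0.11).

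S100a6, whose protein binds the ubiquitin-ligase component CacyBP, was at 723, 1009, 1031, 889 and 1012 CPM in ALDHbr libraries 1 to 5. The ALDHdim libraries held 668, 636, 809, 1043 and 930 CPM. Low values came from both groups (ALDHbr 1, ALDHdim 1 and ALDHdim 2), and the highest was in ALDHdim 4. The log2 fold change was 0.19 (SE 0.17), with an interval of 0.90 to 1.45-fold.

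S100a10 (p11) encodes a member that holds its active shape without calcium, and with annexin A2 it forms a cell-surface complex that binds plasminogen. ALDHbr libraries 1 to 5 had 272, 426, 461, 374 and 380 CPM of it. In the ALDHdim libraries the values were 328, 250, 406, 405 and 410 CPM. ALDHdim 2 and ALDHbr 1, from opposite groups, were the lowest of the 10. The log2 fold change was 0.085 (SE 0.17) with an interval of 0.83 to 1.36-fold, and its sign turned without ALDHdim 2 (−0.02) and without both ALDHbr 3 and 5 (−0.01).

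S100a11 (calgizzarin), whose protein pairs with annexin A1, had the estimate nearest to 0. The ALDHbr values were 644, 683, 776, 895 and 726 CPM. The ALDHdim values were 713, 536, 749, 862 and 906 CPM. Both the lowest library, ALDHdim 2, and the highest, ALDHdim 5, belonged to the ALDHdim group. The log2 fold change was −0.02 (SE 0.16), with an interval of 0.78 to 1.25-fold. It was above 0 without ALDHbr 1 (0.03), ALDHbr 2 (0.0077), ALDHdim 4 (0.04) or ALDHdim 5 (0.06), and with limma-voom (0.02).

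S100a4 was the most variable of the 7. It was at 32.3, 45.0, 63.4, 94.4 and 85.8 CPM in ALDHbr libraries 1 to 5, from 51, 23, 49, 120 and 103 counts. In the ALDHdim libraries it was at 44.7, 40.4, 58.7, 114 and 118 CPM. ALDHdim 4 and 5 and ALDHbr 4 and 5 were high and replicates 1 and 2 of both groups were low, so that the spread lay within each group rather than between them. Its log2 fold change was −0.20 (SE 0.39), with an interval of 0.48 to 1.57-fold, and it was 0.04 without ALDHdim 5 and 0.09 with limma-voom. With the replicate number fitted as a block the estimate was −0.22 and the SE fell to 0.15. The unadjusted p was then 0.14 and the adjusted p 0.81 from edgeR's quasi-likelihood test. Much of its spread thus went with the shared replicate number. The highest library was 3.64-fold above the lowest, and the coefficient of variation over 10 libraries was 44.8%. Of the 2400 tested genes within 1.5-fold of its mean level, 1.79% had a higher coefficient of variation and the median was 17.4%. For the other 6 genes the coefficient ran from 15.6% (S100a11) to 28.0% (S100a13).

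S100a13, whose protein takes part in the release of fibroblast growth factor 1 from cells, was at 79.8, 176, 98.3, 77.9 and 93.3 CPM in the ALDHbr libraries. The ALDHdim libraries held 96.5, 110, 87.6, 87.6 and 99.985 CPM. ALDHbr 2 stood alone, at 90 counts in the shallowest library, and the other 9 libraries lay between 77.9 and 110 CPM. The log2 fold change was 0.07 (SE 0.19), with an interval of 0.80 to 1.39-fold. It was −0.16 without ALDHbr 2, −0.01 with limma-voom and −0.0034 with no filter on low counts.

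S100a16, a broadly expressed member, was at 147, 196, 215, 172 and 192 CPM in the ALDHbr libraries and at 155, 185, 203, 144 and 109 CPM in the ALDHdim libraries. ALDHdim 5, the library with the most S100a4, had the least S100a16. The log2 fold change was 0.21 (SE 0.16), with an interval of 0.91 to 1.46-fold, and it was 0.09 without ALDHdim 5.

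**Figure D2:**
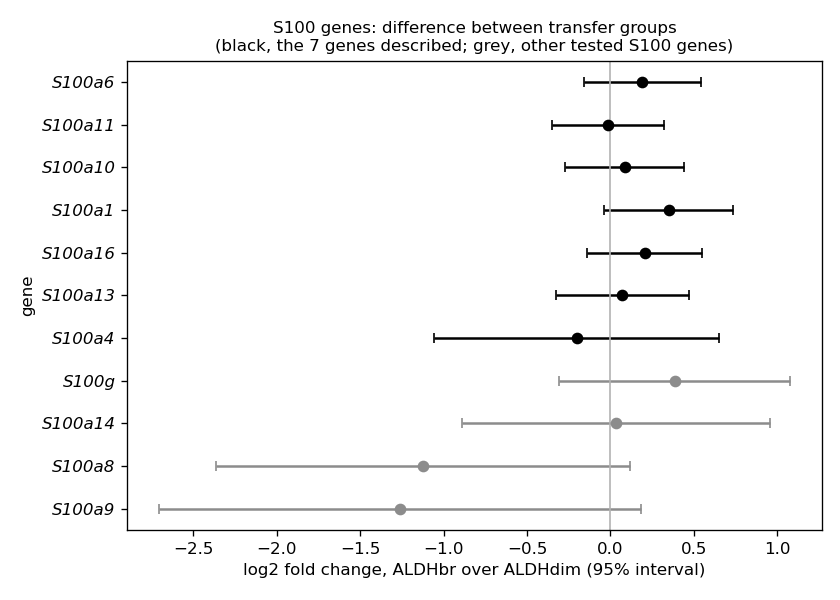
Log2 fold change of ALDHbr over ALDHdim (horizontal axis) with its 95% interval for the 7 S100 genes (black) and for the other tested S100 genes (grey). All intervals include 0, and those of S100a8 and S100a9 are wider than those of the 7 genes.

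The other S100 genes of the table served as a comparison within the family. Of 13 listed, 11 were in the table and 4 were tested, with 2 higher and 2 lower estimates, 0 past the threshold and a median log2 fold change of −0.55. S100a8 and S100a9, which encode the calprotectin of neutrophils, differed by −1.12 (SE 0.55) and −1.26 (SE 0.64). S100a8 reached 300 CPM in ALDHdim 2 and lay between 33.8 and 104 CPM in the other 9 libraries. The 7 genes did not share that peak: ALDHdim 2 was the lowest of the 10 libraries for S100a1, S100a6, S100a10 and S100a11. S100g, a cytosolic calcium carrier also called calbindin-D9k, differed by 0.39 (SE 0.32), and S100a14, an epithelial member, by 0.03 (SE 0.42). S100b of glial and Schwann cells averaged 7.84 ± 4.07 CPM in the ALDHbr group and 9.45 ± 4.72 CPM in the ALDHdim group (SD, n = 5 each) and was not tested. S100a2, S100a3, S100a5, S100a7a, S100a7l2 and S100z each averaged at most 1.37 CPM in either group.

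Across the 10 libraries, whatever the group, S100a4 ran with S100a11, S100a10 ran with S100a6, and S100a10 ran with S100a1. These were the 3 of 21 pairs past the threshold, all of them positive. Many other genes ran more closely with each of these genes. Among 10451 named genes ranked by r, S100a11 was at rank 112 for S100a4 and S100a10 at rank 179 for S100a1. S100a10 was at rank 39 for S100a6, and S100a6 at rank 74 for S100a10. S100a4 and S100a11 had an r of 0.85 and a rho of 0.93 in log2 CPM (permutation p = 0.00142 and 0.00041, adjusted over 21 pairs 0.023 and 0.0086), and r was 0.81 without the 2 libraries farthest from the median of S100a4. S100a6 and S100a10 had an r of 0.86 and a rho of 0.72 (permutation p = 0.00215 and 0.024, adjusted 0.023 and 0.14), and r was 0.78 without the 2 farthest libraries. S100a1 and S100a10 had an r of 0.85 and a rho of 0.84 (permutation p = 0.00487 and 0.0039, adjusted 0.034 and 0.041), and r was 0.95 without the 2 farthest. With each transfer group's mean removed the 3 coefficients were 0.86, 0.87 and 0.88. Neither transfer group alone has the 6 libraries needed for a coefficient of its own. The first pair was past the threshold when any single library was left out, with adjusted permutation p from 0.022 to 0.049. The second was lost without ALDHdim 2 (r = 0.78, adjusted permutation p = 0.090). The third was lost without ALDHbr 1, 4 or 5 or ALDHdim 1, 2 or 3, at r from 0.82 to 0.85. S100a1, S100a10 and S100a6 also had the most negative r with the log2 total count, at −0.86, −0.66 and −0.62. The part of depth in the pairs of S100a10 with S100a6 and with S100a1 was not tested.

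S100a13 and S100a16 stood outside these pairs. S100a1 and S100a13, the neighbours that are transcribed away from each other across the interval printed above, had an r of 0.46 and a rho of 0.10 (permutation p = 0.20 and 0.79, adjusted 0.41 and 0.82), and r was 0.02 without ALDHbr 2. S100a16 had r of −0.36 with S100a4 and −0.39 with S100a11, with adjusted permutation p of 0.53 and 0.50. Among the pairs that did not pass, S100a1 and S100a6 had an r of 0.75 and a rho of 0.67 (permutation p = 0.012 and 0.039, adjusted 0.063 and 0.14). S100a4 and S100a6 had an r of 0.66 and a rho of 0.68 (permutation p = 0.041 and 0.034, adjusted 0.14 for both). S100a11 and S100a10 had an r of 0.72 (permutation p = 0.017, adjusted 0.070; rho 0.52), which fell to 0.10 without ALDHbr 1 and ALDHdim 2.

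**Figure D3:**
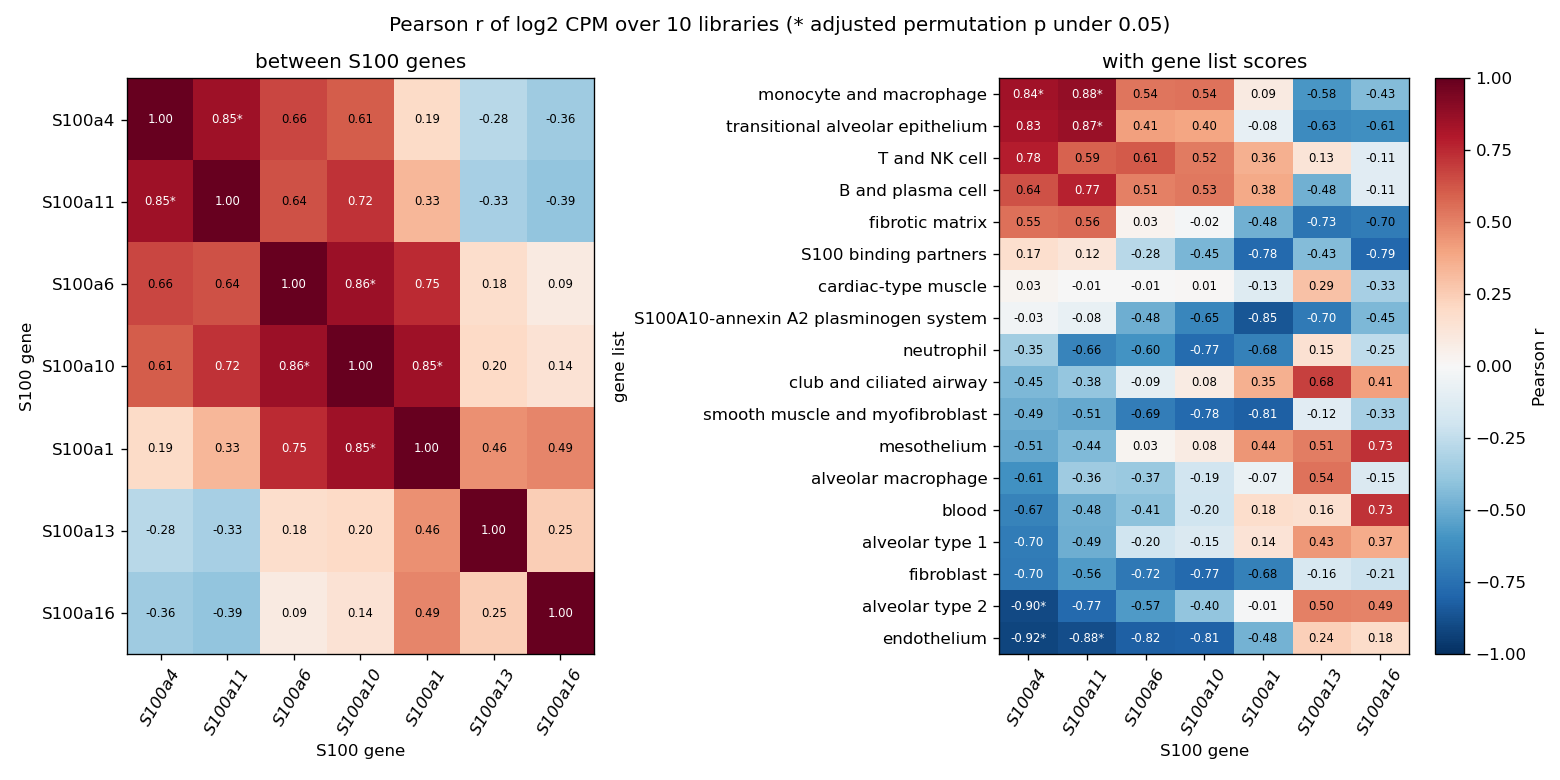
Pearson r of log2 CPM over 10 libraries between the 7 S100 genes (left) and between each of them and the mean centred log2 CPM of 18 gene lists (right), from −1 (blue) to 1 (red). Asterisks mark an adjusted permutation p under 0.05, which 3 of 21 pairs and 6 of 126 gene and list relations had.

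All 7 genes were set against lists of cell-type markers and partners. S100a4 and S100a11 were high where genes of the monocyte and macrophage list and the transitional epithelial list were high, and low where endothelial genes were high. Of 126 relations between the 7 genes and 18 lists, 6 passed by Pearson's r, all with S100a4 or S100a11. The pattern was not particular to these genes: with the endothelial list S100a6 had an r of −0.82 and a rho of −0.85 (adjusted permutation p = 0.056 and 0.040), and S100a10 an r of −0.81 and a rho of −0.65 (adjusted permutation p = 0.056 and 0.20). By rho, S100a16 with the partner list (−0.87) and S100a4 with the T and NK cell list (0.85) also passed, each at an adjusted permutation p of 0.040, where the adjusted p of their r was 0.058. Libraries with the same replicate number resembled each other in these measures, with S100a4 low in numbers 1 and 2 of both groups and high in 4 and 5. The permutations treat the 10 libraries as exchangeable, so their p-values are too small if a number marks a shared batch or cage, and 5 numbers are too few for a correlation by number. With the endothelial list, S100a4 had an r of −0.92 and a rho of −0.93 (permutation p = 0.00035 and 0.00040, adjusted 0.019 and 0.040). S100a11 had an r of −0.88 and a rho of −0.87 with the same list (permutation p = 0.00035 and 0.0021, adjusted 0.019 and 0.040). Without the 2 libraries farthest from the list's median these r were −0.90 and −0.74. All 12 endothelial genes had a negative r with S100a4, from −0.97 for Car4, a carbonic anhydrase of capillaries, to −0.47 for Vwf (von Willebrand factor). All 12 were negative with S100a11 as well, from −0.93 for Ednrb, the endothelin receptor of capillary cells, to −0.48 for Vwf.

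With the monocyte and macrophage list, S100a4 had an r of 0.84 and a rho of 0.90 (permutation p = 0.0020 and 0.00097, adjusted 0.041 and 0.040). S100a11 had an r of 0.88 and a rho of 0.85 with it (permutation p = 0.00046 and 0.0028, adjusted 0.019 and 0.040). Without the 2 farthest libraries r was 0.98 for S100a4 and 0.82 for S100a11. All 14 genes of that list had a positive r with both. For S100a4 the highest was Ccr2, the chemokine receptor of recruited monocytes, at 0.92, and for S100a11 it was C1qc, a chain of complement C1q, at 0.90. Lyz2 (lysozyme) was the lowest for both, at 0.13 and 0.24. The summed level of the list ran from 12751 to 23143 CPM in ALDHbr and from 12804 to 17519 CPM in ALDHdim libraries, and none of its genes was at 0 throughout. Most of that sum was Lyz2, at 11149 to 20577 CPM in ALDHbr and 12086 to 14737 CPM in ALDHdim libraries. The sum is therefore mainly a level of Lyz2, whereas the score weighs each gene of the list equally. The score of the alveolar macrophage list had an r of −0.61 with S100a4 and −0.36 with S100a11 (adjusted permutation p = 0.20 and 0.47). Its genes were split, with 4 positive and 5 negative for each of the 2. For S100a4 they ran from −0.97 for Car4, which is also in the endothelial list, to 0.75 for Mrc1. For S100a11 they ran from −0.85 for Car4 to 0.69 for Ctsk.

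Among the epithelial lists, S100a11 ran with the transitional alveolar list, of cells between alveolar type 2 and type 1 (r = 0.87 and rho = 0.87, permutation p = 0.00113 and 0.0021, adjusted 0.028 and 0.040, r = 0.79 without the 2 farthest libraries). Krt8, the keratin that marks that state, had an r of 0.89 with S100a11, and 11 of the 12 genes were positive, Plaur being the exception at −0.07. S100a4 had an r of 0.83 and a rho of 0.88 with that list (permutation p = 0.0030 and 0.0019, adjusted 0.055 and 0.040). With the alveolar type 2 list S100a4 had an r of −0.90 and a rho of −0.82 (permutation p = 0.0011 and 0.0054, adjusted 0.028 and 0.062), and r was −0.82 without the 2 farthest libraries. All 10 genes of that list were negative, from −0.89 for Sftpa1 (surfactant protein A) to −0.22 for Sftpd (surfactant protein D). With the fibroblast list all 7 genes had a negative r and none passed. S100a10 was at −0.77, S100a6 at −0.72, S100a4 at −0.70 although long used as a fibroblast marker, and S100a1 at −0.68 (adjusted permutation p = 0.058, 0.082, 0.090 and 0.14). S100a11 followed at −0.56, S100a16 at −0.21 and S100a13 at −0.16. The 13 genes of that list were split. Negative ones numbered 10 for S100a1 and S100a4, 9 for S100a6 and S100a10, 7 for S100a11 and S100a13 and 6 for S100a16. Dpt was positive with S100a4, S100a6, S100a10 and S100a11, at 0.49 to 0.64. With the fibrotic matrix list none of the 7 passed and the signs differed. S100a4 had an r of 0.55 and S100a11 of 0.56 (adjusted permutation p = 0.27 and 0.26). S100a13 was at −0.73 and S100a16 at −0.70 (adjusted permutation p = 0.067 and 0.11), with all 20 genes of the list negative for each. Without the 2 farthest libraries these were −0.13 and −0.79. S100a1 was at −0.48, S100a6 at 0.03 and S100a10 at −0.02.

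The lists were not independent of each other. The monocyte and macrophage score had an r of 0.96 with the transitional epithelial score, −0.87 with the endothelial score and −0.87 with the alveolar type 2 score, so the 6 relations describe 1 pattern over the same 10 libraries. Which cells carried S100a4 or S100a11 was not tested. With group means removed the 6 coefficients ranged from −0.94 to 0.89, each in its own direction, and 14 relations passed. When 1 library was left out, the number past the threshold was 0 without ALDHdim 3, 4 or 5, 1 without ALDHdim 2, 2 without ALDHdim 1, 3 without ALDHbr 4 or 5, 4 without ALDHbr 3, 7 without ALDHbr 1 and 12 without ALDHbr 2. Over these omissions the smallest size of any of the 6 coefficients was 0.78, for S100a11 with the macrophage list without ALDHdim 2.

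**Figure D4:**
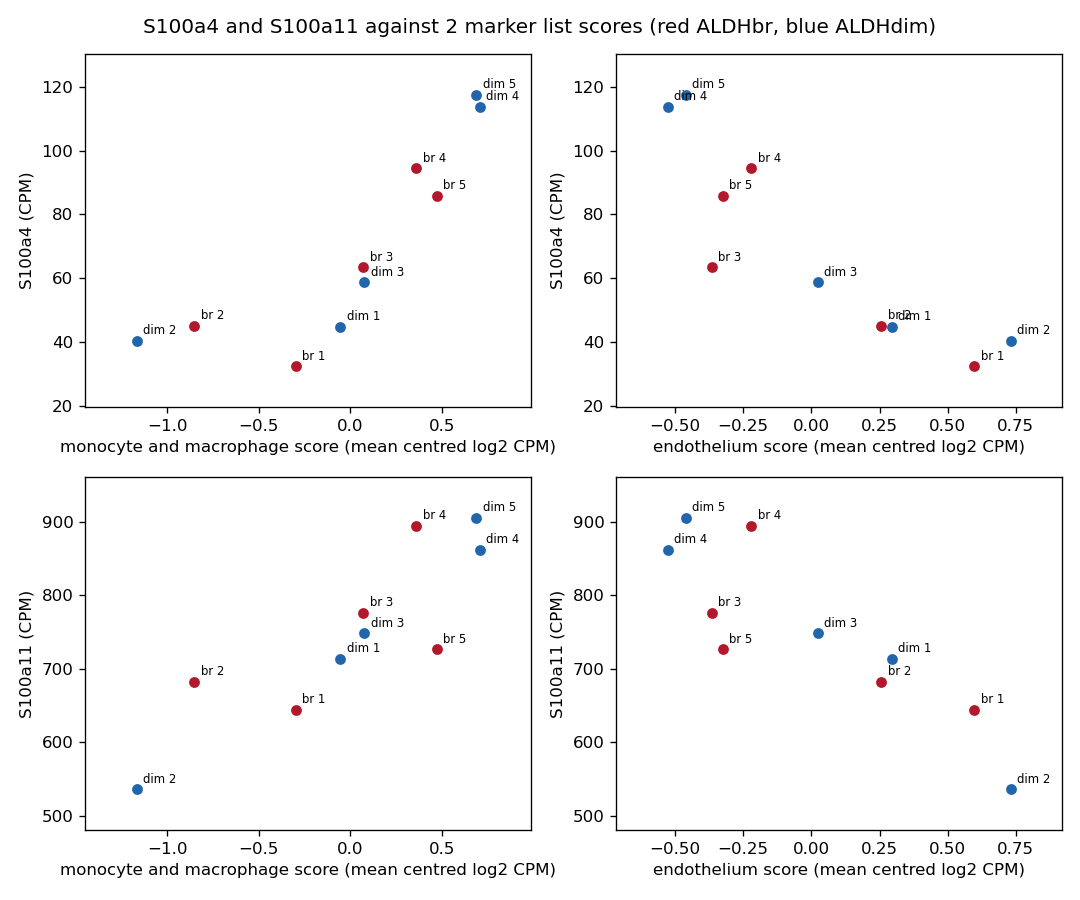
S100a4 (top) and S100a11 (bottom) in CPM against the monocyte and macrophage score (left) and the endothelial score (right), each the mean over the list of log2 CPM centred per gene, with 1 labelled point per library. Libraries of both groups are mixed along each trend, with ALDHdim 4 and 5 at the end of high S100a4 and ALDHdim 2 at the end of low S100a11.

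Genes known to bind S100 proteins were examined from a fixed list. Of 26 listed, 21 were tested, 10 with higher and 11 with lower estimates in ALDHbr recipients, 0 past the threshold, and a median log2 fold change of −0.0086. The plasminogen system around S100A10 and annexin A2 had 6 of 8 genes tested, 4 higher and 2 lower, with a median of 0.01. With the score of that list S100a10 had an r of −0.65 and a rho of −0.81 (adjusted permutation p = 0.15 and 0.069). Its r was −0.50 without the 2 farthest libraries, and 5 of the 6 genes were negative, all but Anxa2. S100a1 had an r of −0.85 and a rho of −0.61 with it (adjusted permutation p = 0.056 and 0.23). Anxa2 itself, the partner of S100a10, averaged 641 ± 64.2 CPM after ALDHbr transfer and 692 ± 86.9 CPM after ALDHdim transfer (SD, n = 5 each; log2 fold change −0.11, SE 0.14). Ahnak, a giant scaffold that the same complex holds at the membrane, differed by 0.0024 (SE 0.19). Anxa1 differed by −0.32 (SE 0.23), Cacybp by 0.27 (SE 0.19), Myh9, the non-muscle myosin bound by S100A4, by −0.17 (SE 0.23) and Fgf1 by 0.13 (SE 0.21). Atp2a2, the calcium pump regulated by S100A1, had a log2 fold change of −0.43 (SE 0.19, unadjusted p = 0.036 and adjusted p = 0.99925 from edgeR's quasi-likelihood test), and Ryr2, the calcium release channel, of 0.75 (SE 0.41). Ager, the receptor that extracellular S100 proteins bind and a marker of alveolar type 1 cells, was at 1643 ± 372 and 1545 ± 129 CPM (0.09, SE 0.17). Anxa11, a partner of S100a6, averaged 0 and 0.51 CPM and was not tested.

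Of 8 known pairs of an S100 gene and its partner, 1 ran together across the libraries. S100a11 and Anxa1 had an r of 0.81 and a rho of 0.81 (permutation p = 0.0042 and 0.0066, adjusted over 8 pairs 0.034 and 0.053), and r was 0.94 without the 2 libraries farthest from the median of Anxa1. Anxa1 was lowest in ALDHbr 2 and ALDHdim 2, at 354 and 415 CPM, and highest in ALDHdim 4 and 5, at 984 and 873 CPM. The relation was not particular to this pair. Among the 21 tested genes of the partner list, Anxa2 had the highest r with S100a11 (0.87) and with S100a4 (0.89). S100a10 and Anxa2, the best known pair, had an r of 0.46 and a rho of 0.20 (permutation p = 0.18 and 0.58, adjusted 0.21 and 0.78). S100a1 and Atp2a2 had an r of −0.74 and a rho of −0.73 (permutation p = 0.015 and 0.020, adjusted 0.061 and 0.081), which was −0.59 without the 2 farthest libraries. S100a6 and Cacybp had an r of 0.65 (adjusted permutation p = 0.12), S100a13 and Fgf1 of 0.53 (0.17), S100a1 and Ryr2 of 0.50 (0.18), S100a10 and Ahnak of −0.57 (0.17) and S100a4 and Myh9 of −0.0077 (0.98). These 8 pairs were chosen after the levels of the genes had been seen.

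Among 10451 named genes, those with the highest r over the 10 libraries are given as a description. For S100a4 they were Pfn1 (profilin, 0.95), Ms4a6d, a membrane protein of macrophages (0.95), and Eif4a1, a helicase of translation initiation (0.95), and S100a11 came at rank 112. For S100a11 they were Hpse (heparanase, 0.96), Hvcn1, a proton channel of leukocytes (0.96), and Klhdc8a (0.96). For S100a6 they were Psmb6, a proteasome subunit (0.93), Lyplal1 (0.93) and Hint3 (0.92), and for S100a10 they were Dnaja2, a co-chaperone (0.96), Cox7b of the respiratory chain (0.94) and Tmsb4x, a thymosin that binds actin (0.94). S100a1 followed Lyz2 (0.98), Rpl22l1 (0.96) and Hsf2 (0.95). S100a13 followed Exosc2 (0.96) and Cnbp (0.94), and S100a16 followed Hdgfl3 (0.94), Qk, an RNA-binding protein (0.93), and Rassf9 (0.93). For S100a13 and S100a16 the nearest of the other 6 genes came at rank 1606 and rank 1359.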

How the data were processed

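Per the labels' protocols, RNA of 10 lung samples went into BRB-seq libraries, which read 3' ends and carry a 10 nt molecular identifier, a 9 nt sample barcode and an 81 nt insert. The authors' deposited values are whole-number counts for each gene, without normalization. Per the submitters' processing notes, the builds were GRCm38 and GRCh38 and the tools included HISAT2 2.2.1, Trim Galore 0.6.7, DESeq2, UMI-tools and featureCounts 2.0.1. The sources used here do not say whether reads were collapsed by identifier, whether strand was used or which annotation was counted.

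Library totals lay between 588063 and 2002947 counts. Genes kept by filterByExpr (minimum count 10) numbered 10844 and held 97.3% of counts. They were scaled by TMM and tested with glmQLFTest after a robust glmQLFit (edgeR 4.0.16, R 4.3.3). Adjustment was by Benjamini-Hochberg over all tested genes, with a threshold of 0.05. On simulated data of this comparison with 10844 genes the test recovered 15.3% of genes changed 1.5-fold, 66% of those changed 2-fold and 96.7% of those changed 4-fold. Correlations used log2 CPM (prior count 2) with two-sided permutation tests of 100000 resamples. DESeq2 1.42.0, limma 3.58.1, other scalings and filters, and omission of libraries were alternatives.

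The 7 genes and the gene lists were chosen with earlier results of these data known. The rule for naming genes took the 7 genes, the other S100 genes, the listed partners, 6 reference genes (given here where they bear on a result) and the 3 genes nearest to each of the 7 by r, leaving out predicted and clone names. One result under this rule is not reported here. Protein sequences were not used here.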

Additional observations from a re-analysis of the deposited data

Results flagged for a closer look

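Among 52 sets of 5 values, from 26 genes in each transfer group, 5 contained a value set apart from the rest by more than Dixon's 95% limit. Chance alone marks about 1 set in 20, or 2.6 of these. S100a13 was at 176.0 CPM in ALDHbr 2, with the other ALDHbr libraries between 77.9 and 98.3 CPM (a gap of 0.792 of the group's range). In the same library Scgb1a1, the secretoglobin of club cells, was at 44491.5 CPM, with the others between 15252 and 23266 CPM (0.726). In ALDHdim 2, S100a8 was at 300.2 CPM with the others between 41.7 and 104 CPM (0.757), and S100a9 was at 484.3 CPM with the others between 57.0 and 113 CPM (0.869). Ryr2 was at 12.6 CPM in that library, with the others between 7.1 and 8.5 CPM (0.748).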

How the results depend on the processing

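The number of genes past the threshold was 0 under each alternative except with no filter on low counts, where it was 185 of 33347 (182 higher and 3 lower in ALDHbr recipients). Over those genes the median log2 fold change was 0.22, and 0.28 with DESeq2, against 0.01 over the filtered genes. With that exception the smallest adjusted p of any gene was 0.30, without ALDHbr 1. For the 7 S100 genes the adjusted p was 0.34 or more under each alternative. Estimates changed sign with limma-voom for S100a4 (0.0907), S100a11 (0.0174) and S100a13 (−0.0131), with no filter for S100a13 (−0.0034) and without both ALDHbr 3 and 5 for S100a10 (−0.0131). Over single-library omissions the log2 fold change ranged from 0.20 to 0.47 for S100a1, −0.40 to 0.0385 for S100a4, 0.11 to 0.29 for S100a6, −0.0222 to 0.19 for S100a10, −0.12 to 0.06 for S100a11, −0.16 to 0.16 for S100a13 and 0.09 to 0.31 for S100a16. The number of S100 pairs past the threshold ranged from 1 to 4 in the same omissions, and that of gene and list relations from 0 to 12, being 14 with group means removed and 3 without both ALDHbr 3 and 5. The cause of these changes was not tested. Both counts were unchanged with DESeq2 size factors and with a prior count of 0.5.

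The groups share replicate numbers. Deviations from the group means correlated between same-numbered libraries by 0.062 to 0.366, above 0.1 for 4 of 5 numbers, and 7 of 10 libraries correlated best with their own number, which is a hint from the data only. With the replicate block 0 genes passed, 727 against 402 had an unadjusted p under 0.05, and the estimate of S100a1 was 0.31 (unadjusted p = 0.047, adjusted p = 0.73 from edgeR). Depth limits S100a4 most, with 23 counts in ALDHbr 2.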
